A study of Mus musculus with 388 samples.

Results

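The 8 genes described here encode adhesion molecules and surface proteins used to recognise mesenchymal cells: Vcam1, Nt5e, Eng, Cd44, Alcam, Cdh2, Cdh11 and Itgav. They were taken by symbol from the count table of single bone marrow stromal cells, which holds 25000 genes, and all 8 were present. Their levels were compared between cells with and without the red reporter, in both runs of cell titles and from cell to cell.

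The cells came from the bone marrow of 2-month-old C57BL/6 mice of the genotype KitMerCreMer; R26tdTomato, in which a tamoxifen-inducible Cre driven from the Kit locus switches on tdTomato. All of the animals had received tamoxifen before birth, at E12.5 and E14.5, so that Tomato+ cells carry a label set in fetal life and Tomato- cells from the same kind of animal do not. The sort kept PDGFRα+ cells of both groups and left out cells with CD45, Ter119 or CD31, surface proteins of blood, red cell precursors and endothelium. Of 388 cells, 386 remained after removal of 2 shallow Tomato+ cells. A lack of the reporter cannot be told apart from incomplete recombination, since the labels do not give the share of Kit-expressing fetal cells that recombined.

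The titles fall into 2 orders, whose meaning the labels do not state. Order 1 held 94, 5 and 38 Tomato+ cells in sets P1, P2 and P3 and 60 Tomato- cells in the single set N2. Order 2 held 24 Tomato+ cells in each of sets P1 and P2, and 71 and 70 Tomato- cells in sets N1 and N2. Neither animals nor cultures are named, so each group was treated as 1 sample and no test between groups was made. The intervals given are exact 95% intervals that cover counting error only, and because amplified reads were counted, with no molecular identifiers mentioned, they understate the true error.

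Vascular cell adhesion molecule 1, the product of Vcam1, is an immunoglobulin-type receptor that holds blood cells carrying the integrin α4β1 in the marrow, and it is a classic surface protein of reticular stromal cells. The cadherins encoded by Cdh2 and Cdh11 bind like molecules on neighbouring cells and are tied to actin through catenins. Integrin αv, encoded by Itgav, pairs with several β chains to bind matrix proteins and latent transforming growth factor β. Cd44 encodes a hyaluronan receptor, Nt5e the ectoenzyme CD73 that makes adenosine from AMP, Eng the TGF-β co-receptor endoglin (CD105), and Alcam the adhesion molecule CD166. CD73, CD105, CD44 and CD166 are widely used to recognise cultured mesenchymal stromal cells, while endoglin is also abundant on endothelium and CD44 on blood cells.

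Eng was the member called higher in Tomato+ cells and Cd44 the member called lower. A gene was tested here when the higher group of each order reached 20 CPM with counts in 20% of its cells, where CPM are counts scaled to the total of the summed cells. It was called when both orders passed 1.5-fold in the same direction, which held for 2.72% of the 5693 genes tested on the higher side and for 3.62% on the lower side. The 1 call on each side among 7 members tested is read against those shares, and with so few genes it does not set the list apart. The 250 bases before the RefSeq start of each are shown as the sequence context of those results (GRCm38.p6, 5′ to 3′ on the gene's strand). Capitals mark the motif GGAAGT on either strand, a form of the ETS factor site. The GC box GGGCGG and the TATA box TATAAA were searched in the same way. The motifs were chosen after the sequences had been seen. The Eng window is chr2:32646345-32646594 on the + strand and the Cd44 window chr2:102901666-102901915 on the - strand.
Eng: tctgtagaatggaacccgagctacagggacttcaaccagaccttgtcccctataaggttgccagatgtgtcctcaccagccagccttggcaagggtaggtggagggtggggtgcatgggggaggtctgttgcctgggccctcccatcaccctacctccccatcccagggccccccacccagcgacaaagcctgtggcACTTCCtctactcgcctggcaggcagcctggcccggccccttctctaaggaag
Cd44: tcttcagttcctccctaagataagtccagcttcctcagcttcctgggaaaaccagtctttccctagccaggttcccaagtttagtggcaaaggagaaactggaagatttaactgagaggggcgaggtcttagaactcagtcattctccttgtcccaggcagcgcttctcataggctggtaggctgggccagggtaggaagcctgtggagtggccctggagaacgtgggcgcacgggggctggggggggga
The Eng window had 62.4% G and C and the Cd44 window 56.4%, against a median of 52.4% over the same window of 32851 RefSeq starts. A GGAAGT was present in 19.7% of those windows, GGGCGG in 32.7% and TATAAA in 12.4%. The Eng window held 1 GGAAGT, on the opposite strand, and the Cd44 window held none of the 3 motifs. No window was available for Vcam1, Cdh2 and Cdh11. The Itgav window held 2 GGAAGT, and the Nt5e and Alcam windows held 4 and 2 GGGCGG. Those of Nt5e overlapped in pairs, at 223 and 219 and at 24 and 19 bases before the start. These matches describe letters and carry no information on binding.

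The genes lie on different chromosomes or far apart (GRCm38, GENCODE M21). Itgav, Eng and Cd44 are on chromosome 2 at 83724397 to 83806916, 32646595 to 32682669 and 102811141 to 102901665. Vcam1 is on chromosome 3 at 116109949 to 116129688, Cdh11 on chromosome 8 at 102632095 to 102785642 and Nt5e on chromosome 9 at 88327197 to 88372092. Alcam is on chromosome 16 at 52248996 to 52454074 and Cdh2 on chromosome 18 at 16588877 to 16809246. The table gives 1 value per gene, so exons, introns and untranslated regions are not separated. Genes on the opposite strand overlap Vcam1, Eng, Cd44, Cdh2 and Itgav, among them Fpgs at Eng, and genes on the same strand overlap Eng and Cdh11, among them Mir1954 at Eng and 9430099M06Rik at Cdh11. Reads of such pairs cannot be told apart with certainty, because strand and the treatment of overlaps are not stated for the counting.

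Markers of reticular stroma were present throughout. A count of Lepr, the leptin receptor that marks reticular stroma, was present in each of the 386 cells, and the median cell held 19 of 20 stromal markers at 5 or more counts in Tomato+ cells of both orders, against 18 and 19 in Tomato- cells. Other cell types were also represented in the reads. Ptprc, which encodes CD45, was at 0 in order 1 in both groups. In order 2 it was at 0.129 CPM in Tomato+ cells and 42.2 CPM in Tomato- cells. The 14 myeloid markers summed to 50.8 CPM in Tomato+ and 108.1 CPM in Tomato- cells of order 1, and to 99.2 and 15407 CPM in order 2. The 12 endothelial markers summed to 237 CPM in Tomato+ and 56.8 CPM in Tomato- cells of order 1, and to 275 and 26 CPM in order 2. The 5 cells of Tomato+ set P2 of order 1 stood apart, with Vcam1 at 139.1 CPM and Cdh11 at 25.7 CPM. Median totals per cell ran over the sets between 357347 and 848562 counts.

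Set per length of merged exons, the 8 genes spanned a wide range. Vcam1 was the highest in each group and order, with 485 to 765 CPM per kb, and Cdh11 was next with 109.1 to 164.9 CPM per kb. Cdh2 had 36.2 to 48.4 CPM per kb. Eng, with 12.9 to 43.6 CPM per kb, reached into the range of Cdh2 above it and of Cd44 below it. Cd44 had 10.1 to 20.3, Itgav 9.11 to 15.2 and Nt5e 3.09 to 11.8 CPM per kb, and these neighbouring ranges overlapped. Alcam lay lowest, at 0.0214 to 0.199 CPM per kb.

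Vcam1 was the member closest to universal. It had 30 CPM or more in 385 of 386 cells (99.7%), and its lowest cell still held 27.98 CPM. For so abundant a gene shared reads, described below, could also reach 30 CPM, so this share alone does not show expression in each cell. With each count under 1% of the highest cell of its pool set to 0, Vcam1 was left in 85.2% of cells. It was left in 63.3% of Tomato- cells of order 1 and in 0 of the 5 cells of Tomato+ set P2 of order 1. Summed over cells, Vcam1 reached 6109 CPM in Tomato+ cells of order 1 (95% interval 6094 to 6123), against 4298 CPM in Tomato- cells (4275 to 4320). Order 2 gave 6781 CPM in Tomato+ cells and 5070 CPM in Tomato- cells. On the log2(CPM + 1) scale the ratio came to 0.51 in order 1 and 0.42 in order 2, mean 0.46. Neither order passed the 1.5-fold used here for calling a gene.

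The Vcam1 level differed more between sets than between groups. Tomato+ sets P1, P2 and P3 of order 1 had 7026, 139.1 and 3583 CPM, against 4298 CPM in Tomato- set N2. Tomato+ sets P1 and P2 of order 2 had 5912 and 7435 CPM, against 5877 and 4427 CPM in Tomato- sets N1 and N2. Without set P1 of order 1 the order 1 ratio was -0.38 and the mean 0.02, so the direction in order 1 rested on that set. Within cells the median of Vcam1 was 4627 CPM in Tomato+ and 2362 CPM in Tomato- cells of order 1, and 4736 and 4926 CPM in order 2. Vcam1 also tracked depth in order 1, where its Spearman rho with the total count of a cell was 0.48, and it was -0.02 in order 2. Tomato+ cells of order 1 had a median total of 774174 counts, against 500702 counts in Tomato- cells, and the part of depth in the ratio was not tested.

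**Figure D1:**
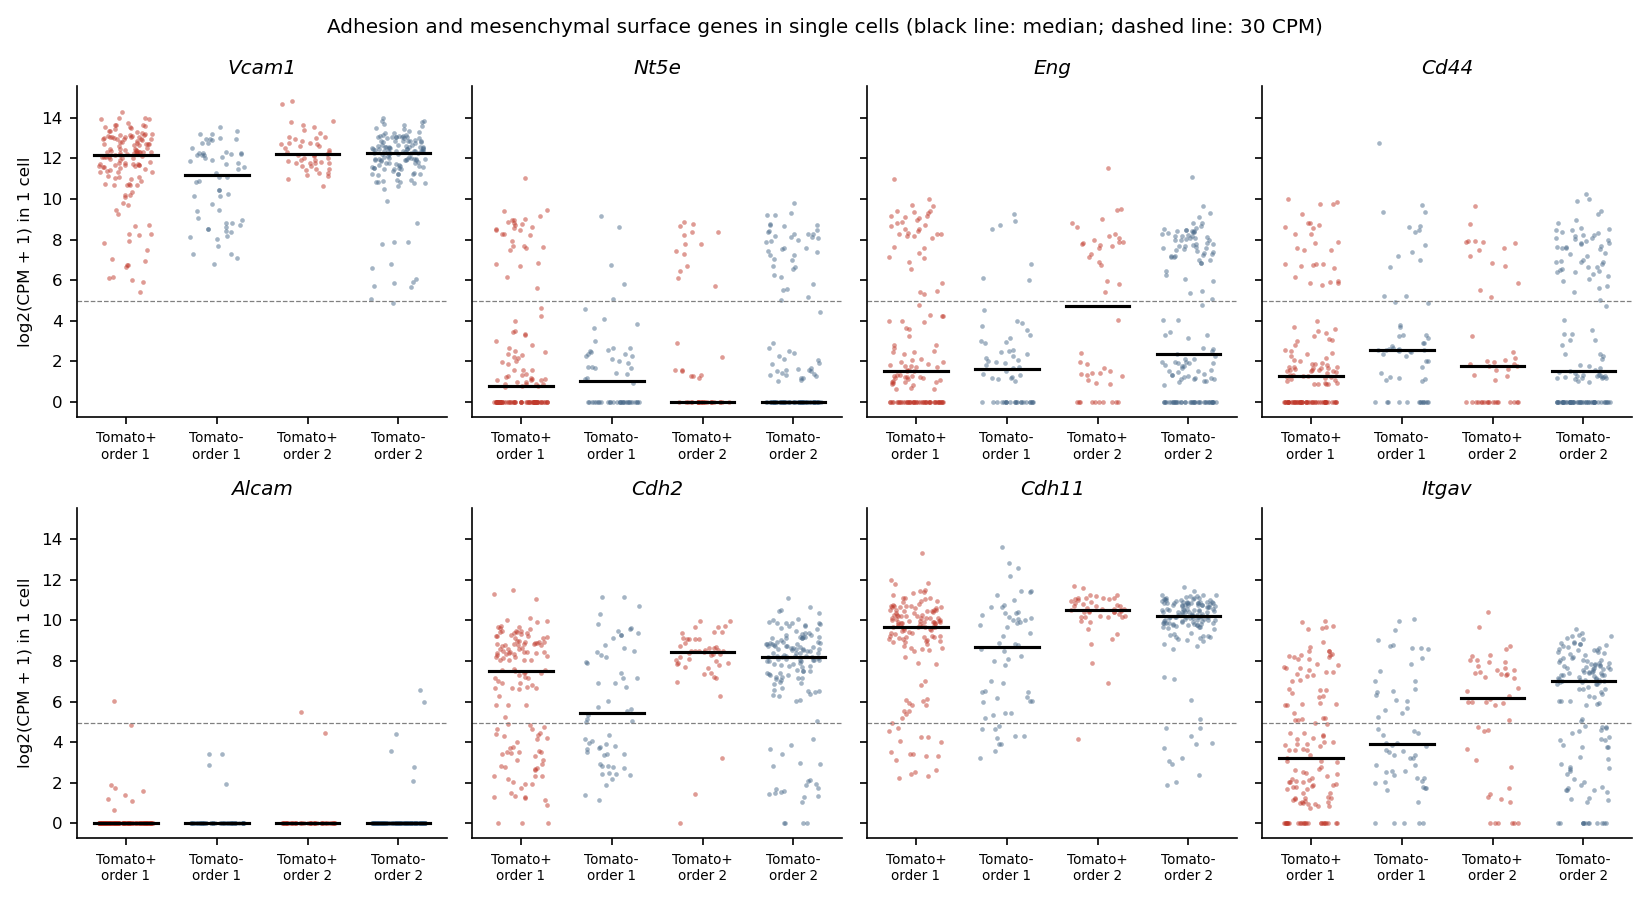
Level of each gene in each kept cell, as log2(CPM + 1), for Tomato+ and Tomato- cells of order 1 and order 2. The black line is the median and the dashed line marks 30 CPM. Nearly all cells lie above the line for Vcam1. Most do for Cdh11, with 27 cells of order 1 and 13 cells of order 2 below it. Nt5e, Eng and Cd44 split into high cells and cells near 0. Itgav spreads between these, with 56 cells of order 1 and 43 cells of order 2 between 10 and 100 CPM. Alcam is at 0 in nearly all cells.

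Alcam, the other immunoglobulin-type member, was barely detected. Of 386 cells, 5.44% had a count and 4 cells (1.04%, exact interval 0.283 to 2.63%) reached 30 CPM. The sums of order 1 were 91 counts in Tomato+ and 5 counts in Tomato- cells. The levels were 0.817 CPM in Tomato+ and 0.152 CPM in Tomato- cells of order 1, and 1.16 and 1.42 CPM in order 2, too low for the size rule. Single cells made up most of these sums: the top cell held 74.7% of the Tomato+ sum in order 1 and 65.2% of the Tomato- sum in order 2. In order 2, cells with 3 or more markers of a class other than stroma at 50 CPM held 100% of the Alcam counts in Tomato+ cells and 81.8% in Tomato- cells. These were 39.6% of the Tomato+ and 45.4% of the Tomato- cells of order 2. In order 1 such cells held 17.6% of the Alcam counts in Tomato+ and 0% in Tomato- cells. They were 19.7% of the Tomato+ and 11.7% of the Tomato- cells of that order. The part of other cell types in the Alcam signal was not tested. CD166 protein on the cells was not measured here.

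Both cadherins were broadly present and differed little between the groups. Cdh11, which encodes osteoblast cadherin, reached 30 CPM in 346 of 386 cells (89.6%). It had 971 CPM in Tomato+ and 986 CPM in Tomato- cells of order 1, and 1469 and 1216 CPM in order 2. The log2 ratios were -0.02 and 0.27, with opposite signs in the orders. By set, Cdh11 had 1054, 25.7 and 777 CPM in Tomato+ sets P1, P2 and P3 against 986 CPM in Tomato- set N2 of order 1. In order 2 it had 1519 and 1430 CPM in the Tomato+ sets against 1211 and 1219 CPM in the Tomato- sets.

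Cdh2, which encodes N-cadherin, reached 30 CPM in 286 of 386 cells (74.1%). Its level was 319 CPM in Tomato+ and 292 CPM in Tomato- cells of order 1, and 391 and 331 CPM in order 2. The log2 ratios, 0.13 and 0.24, averaged 0.18, and the sets of the groups overlapped in both orders. The larger contrast for Cdh2 lay between the orders: 93.8% of Tomato+ cells and 82.98% of Tomato- cells reached 30 CPM in order 2, against 65.7% and 56.7% in order 1. The counting intervals of the Tomato+ shares were 82.8 to 98.7% in order 2 and 57.1 to 73.6% in order 1. They leave out the spread between sets or animals, so they do not test the orders. Nt5e, Eng, Cd44, Cdh11 and Itgav likewise had larger shares in order 2 in both groups. What the orders stand for is not given, so their part in these shares cannot be told apart from other differences between them.

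Itgav was lower in Tomato+ cells in both orders, short of 1.5-fold. It had 97.9 CPM in Tomato+ and 142.3 CPM in Tomato- cells of order 1, and 138.6 and 163.3 CPM in order 2. The log2 ratios were -0.53 and -0.24, and the mean was -0.39. Cells with 30 CPM or more made up 36.5% of Tomato+ and 40% of Tomato- cells in order 1, and 64.6% and 65.96% in order 2, with widely overlapping intervals. By set, Tomato+ sets of order 1 had 109.1, 5.97 and 68.5 CPM, all below the 142.3 CPM of Tomato- set N2. In order 2 the Tomato+ sets had 174.4 and 111.7 CPM, on both sides of the Tomato- sets at 158.6 and 167.005 CPM. Between sets of the same number in order 2 the sign of the ratio differed, at 0.14 for P1 over N1 and -0.58 for P2 over N2.

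Cd44, the hyaluronan receptor gene, was the member called lower in Tomato+ cells. It had 71.2 CPM in Tomato+ cells of order 1 (69.7 to 72.8) against 137.8 CPM in Tomato- cells (133.8 to 141.8). Order 2 gave 68.7 CPM in Tomato+ cells (65.8 to 71.7) against 113.1 CPM in Tomato- cells (110.95 to 115.3). The ratios on the log2 scale, -0.94 and -0.71 (mean -0.83), were past 1.5-fold in both orders. Itgav was the other member below 0 in both orders.

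The sets and cells behind Cd44 were uneven. Tomato+ sets of order 1 had 75.97, 82.2 and 54.5 CPM, all below Tomato- set N2 at 137.8 CPM. Tomato+ sets P1 and P2 of order 2 had 96.9 and 47.5 CPM, and Tomato- sets N1 and N2 had 69.8 and 147.7 CPM, so the groups overlapped there. Between sets of the same number in order 2 the Cd44 ratio had opposite signs, at 0.47 for P1 over N1 and -1.62 for P2 over N2. It was -0.70 among the cells of order 1 whose column-name codes were shared by both groups. What these codes stand for is not in the labels. Without Tomato- set N2 the order 2 ratio was -0.02, and without Tomato+ set P2 it was -0.22, and either omission ended the call. Cells at 30 CPM or more were 21.2% of Tomato+ and 25% of Tomato- cells in order 1, and 31.3% and 38.3% in order 2, differences within the counting intervals. The highest cell held 6980 CPM, in Tomato- set N2 of order 1, against 1011 CPM for the highest Tomato+ cell. With the top cell of each group and order left out, the ratios were -0.91 and -0.95.

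Cells with Ptprc or Pecam1, the genes of CD45 and CD31, carried part of the Cd44 counts. At 5 or more counts of either gene there were 6 of 48 Tomato+ cells and 21 Tomato- cells (14.9%) in order 2. They held 8.10% of the Cd44 sum in Tomato+ cells and 38.7% in Tomato- cells. Cd44 was at 51.2 CPM in such Tomato+ cells and at 253 CPM in such Tomato- cells, and outside them at 70.8 and 83.9 CPM. By Ptprc alone there were 12 Tomato- cells of order 2, with 34.1% of the Cd44 sum and a level of 368 CPM, and 0 cells in the Tomato+ group or in order 1, where the cells were thus chosen by Pecam1. Without the cells holding either gene the order 2 ratio was -0.24 and the call was lost. Order 1, with 7 such Tomato+ cells and 1 such Tomato- cell, stayed at -0.98. Wider removals went different ways. Without cells holding markers of another class at 50 CPM, Cd44 was at -0.78 in order 1 and -0.62 in order 2 and stayed called. With such markers taken at 5 counts, the ratios were -1.13 and 0.08, and the call was lost.

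**Figure D2:**
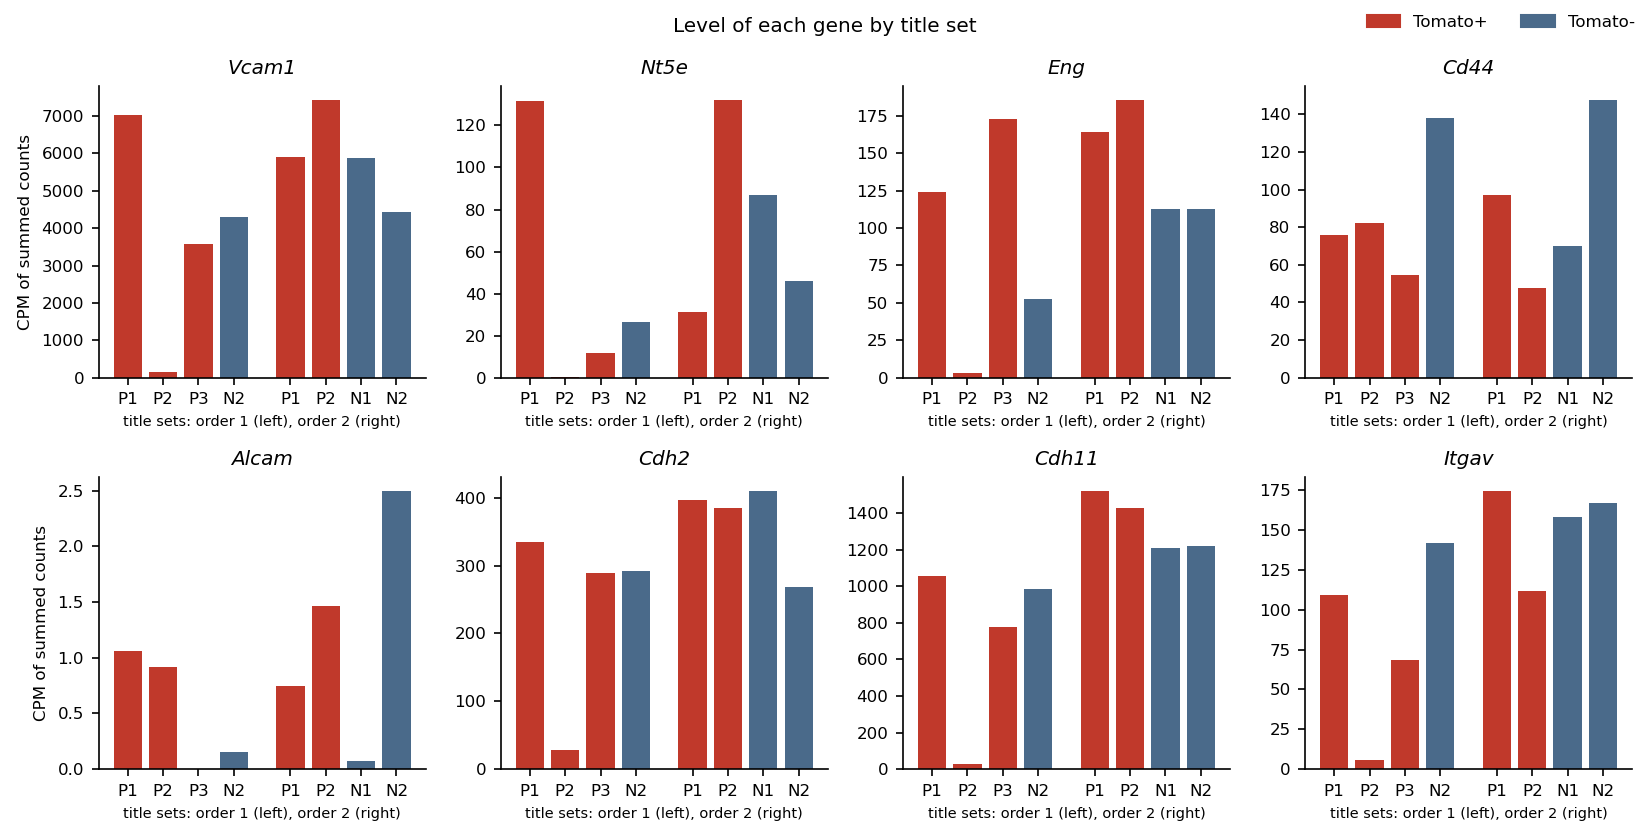
CPM of the summed counts of each gene in the 8 title sets, Tomato+ sets in red to the left of Tomato- sets in blue within order 1 (left) and order 2 (right). Bars start at 0 and each panel has its own scale. Eng, like Vcam1 and Cdh11, is higher in both Tomato+ sets than in both Tomato- sets of order 2. Cd44, like Itgav, is lower in the 3 Tomato+ sets than in the Tomato- set of order 1. Set P2 of order 1 is low for all genes but Cd44 and Alcam.

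Nt5e, the gene of the AMP-hydrolysing enzyme CD73, had the largest mean ratio of the 8 genes and was not called. Its level was 101.8 CPM in Tomato+ and 26.6 CPM in Tomato- cells of order 1, and 88.9 and 64.04 CPM in order 2. The ratio was 1.90 on the log2 scale in order 1 and 0.47 in order 2 (mean 1.18), and order 2 fell short of 1.5-fold. Taken alone, order 1 put 26.8% of the genes tested past 1.5-fold in the higher direction, against 8.66% in order 2.

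The Nt5e counts came from few cells and few sets. In order 1, 30 Tomato+ cells (21.9%, 15.3 to 29.8%) and 5 Tomato- cells (8.33%, 2.76 to 18.4%) reached 30 CPM. Of the 30 Tomato+ cells 29 were in set P1, at 131.6 CPM, while sets P2 and P3 had 0.459 and 11.8 CPM, below the 26.6 CPM of Tomato- set N2. Without set P1 the order 1 ratio was -1.21 and the mean -0.37. In order 2 the Tomato+ sets had 31.3 and 132.2 CPM, on both sides of the Tomato- sets at 86.9 and 45.8 CPM, and 29.2% of Tomato+ and 28.4% of Tomato- cells reached 30 CPM. Between sets of the same number in order 2 the Nt5e ratio was -1.45 for P1 over N1 and 1.51 for P2 over N2.

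Eng, the endoglin gene, was the member called higher in Tomato+ cells. It had 133.05 CPM in Tomato+ cells of order 1 (130.9 to 135.2) against 52.4 CPM in Tomato- cells (49.9 to 54.9). Order 2 gave 176.3 CPM in Tomato+ cells (171.6 to 181.01) against 112.6 CPM in Tomato- cells (110.4 to 114.7). The ratios were 1.33 and 0.64 on the log2 scale, 0.99 on average.

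By set, Eng had 124.4, 2.75 and 173.04 CPM in Tomato+ sets P1, P2 and P3 of order 1 against 52.4 CPM in Tomato- set N2. In order 2 the Tomato+ sets had 163.9 and 185.6 CPM against 112.7 and 112.5 CPM in the Tomato- sets. Vcam1 and Cdh11 also had both Tomato+ sets above both Tomato- sets there. The share of all genes with sets apart in this way is not given here. Among the 83 Tomato+ and 60 Tomato- cells of order 1 with column-name codes shared by both groups, the Eng ratio was 1.06. In order 2 it was 0.54 for P1 over N1 and 0.72 for P2 over N2. The labels do not say that such codes or set numbers mark batches. Cells at 30 CPM or more were 27.7% of Tomato+ cells (20.4 to 36.03%) and 11.7% of Tomato- cells (4.82 to 22.6%) in order 1. In order 2 they were 50% of Tomato+ cells (35.2 to 64.8%) and 42.6% of Tomato- cells (34.3 to 51.1%). Over both orders together the shares were 33.5% and 33.3%, because the order with larger shares holds most of the Tomato- cells.

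The Eng ratio of order 2 rested on few cells. The top cell, in Tomato+ set P2, had 2951 CPM and held 31.6% of the Tomato+ counts of order 2. Without the top cell of each group the order 2 ratio was 0.21, and without set P2 it was 0.54, and the call was lost each time. The cells that held 5 counts of Ptprc or Pecam1 carried 31.6% of the Eng sum in Tomato+ cells and 6.63% in Tomato- cells of order 2, and 16.5% and 0% in order 1. Eng stood at 513 CPM in such Tomato+ cells of order 2 and at 43.1 CPM in such Tomato- cells, and outside them at 135.2 and 127.1 CPM. Without these cells the order 1 ratio was 1.13 and that of order 2 was 0.09.

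Most endothelial transcripts were higher on the same side as Eng. Of the 12 markers, each but Flt1 was higher in Tomato+ cells of order 1 and each but Erg in order 2. Flt1 had 8.78 CPM in Tomato+ and 11.1 CPM in Tomato- cells of order 1, and Erg had 0 and 2.52 CPM in order 2. Emcn, the endomucin gene, was the 1 marker tested and was called higher, with 37.8 CPM in Tomato+ and 13.4 CPM in Tomato- cells of order 1, and 39.8 and 9.28 CPM in order 2. Pecam1 had 12.9 CPM in Tomato+ and 1.49 CPM in Tomato- cells of order 1, and 16.6 and 8.66 CPM in order 2. Kdr, the gene of a vascular growth factor receptor, had 28.99 CPM in Tomato+ and 0.0304 CPM in Tomato- cells of order 1, and 43.4 and 0.215 CPM in order 2. All 12 endothelial markers had counts, Tie1 and Erg were at 0 in Tomato- cells of order 1, Tek and Ptprb in Tomato- cells of order 2, and Erg in Tomato+ cells of order 2. By the rule of 3 markers at 50 CPM, 3 Tomato+ cells of order 1, 1 Tomato+ cell of order 2 and 0 Tomato- cells were endothelial. Every cell of another class by that rule was then removed, 27 and 19 Tomato+ and 7 and 64 Tomato- cells of the orders. The Eng ratio was then 1.0003 in order 1 and -0.52 in order 2, with a mean of 0.24. Few of the cells removed were endothelial. In order 2 the rule for Sca1+ fibroblasts marked 11 Tomato+ and 23 Tomato- cells, and the myeloid rule 4 and 35. A marked cell is not thereby shown to be other than stroma, and each kept cell also had a count of Lepr. The part of each class in the change of the ratio was not tested.

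**Figure D3:**
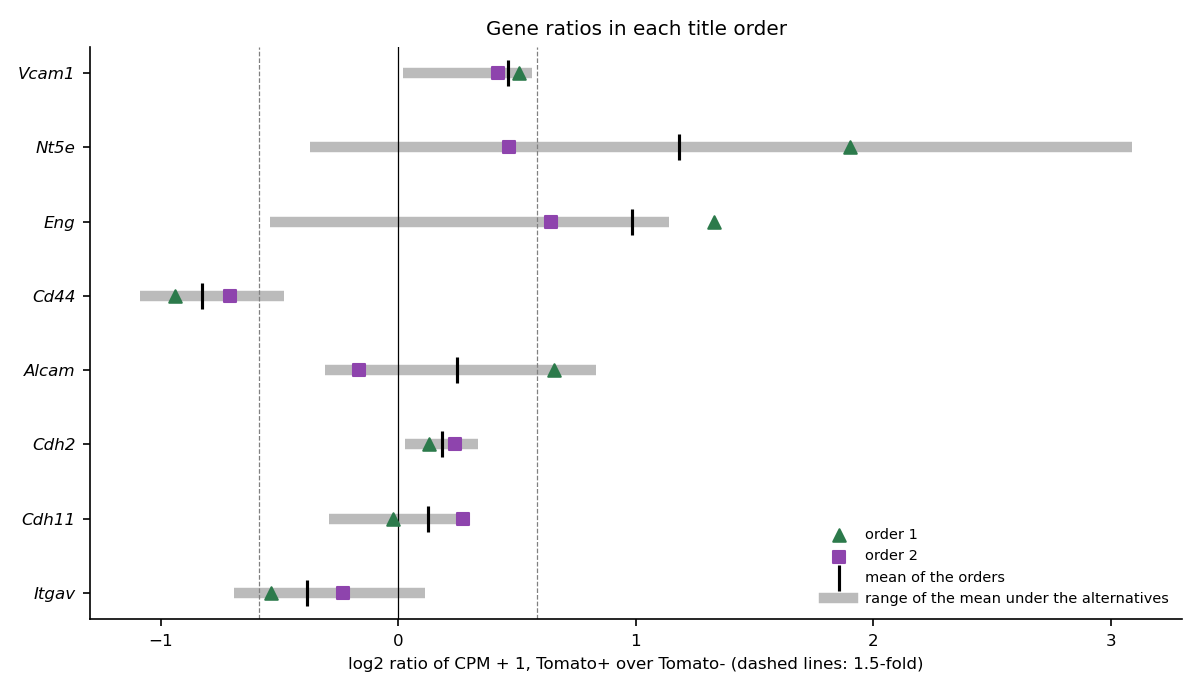
Log2 ratio of CPM + 1, Tomato+ over Tomato-, for each gene in order 1 (triangles) and order 2 (squares), with the mean of the orders (black ticks) and the range of that mean over the alternatives (grey bars). Dashed lines mark 1.5-fold. Eng lies past the line on the right and Cd44 on the left in both orders, and the grey bars of Nt5e, Eng, Alcam, Cdh11 and Itgav cross 0.

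Over the 7 members tested, the median log2 ratio was 0.18, at 0.13 in order 1 and 0.27 in order 2. Over all 5693 genes tested it was 0.02, at 0.04 and 0.00 in the orders. Of the members, 2 were past 1.5-fold on the higher side in order 1, Nt5e and Eng, and 1 on the lower side, Cd44. In order 2 these were 1 and 1, Eng and Cd44. Of all 5693 genes tested, 26.8% were past 1.5-fold on the higher side and 22.9% on the lower side in order 1. In order 2 these shares were 8.66% and 12.49%. With 7 members tested, the counts within an order do not set the list apart from all genes. The genes that are together used to recognise cultured mesenchymal cells did not share a call. Eng was called higher, Cd44 lower, Nt5e was not called and Alcam was too low to be tested.

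Shares of cells need the counts of blood cell genes beside them. Transcripts that stromal cells should lack also had counts in many cells: Lyz2, a myeloid gene, in 74.1% of cells, S100a8 in 40.9% and the globin gene Hba-a1 in 34.2%. Whether these counts were reads shared between cells, or came from blood cells or doublets, was not tested. Counts of Nt5e, Eng and Cd44 were present in 49.2%, 69.4% and 64.2% of cells, at or below the share for Lyz2, and are read here as no evidence of expression by themselves. At 30 CPM the share was 16.8% for Lyz2 and 19.95% for Hba-a1, against 23.1% for Nt5e, 29.3% for Cd44, 33.4% for Eng and 51.3% for Itgav. In Tomato- cells of order 2, S100a8 reached 30 CPM in 65.2% of cells. These alone put its share of all cells above that of Nt5e. Its summed level in those Tomato- cells was 6728 CPM, far above those of Nt5e, Eng and Cd44. A pool is here the cells of a shared column-name code in order 1 and of a shared set number in order 2. With each count under 1% of the highest cell of its pool set to 0, S100a8 was left in 5.67% of those Tomato- cells. Nt5e was left in 29.1%, Eng in 42.6% and Cd44 in 40.4%, close to their shares at 30 CPM. That cutoff follows the highest cell of a pool, which held 422 and 567 counts of Nt5e in order 2. For Nt5e it left the same share of Tomato- cells of order 2 as a cutoff of 5 counts, 29.1%. What is left thus depends on the level of the top cell and does not by itself tell expression from shared reads. In Tomato- cells of order 1 the shares at 30 CPM were 8.33% for Nt5e, 11.7% for Eng and 10% for Lyz2. Thinned to 150000 counts, Eng had a count in 43.6% of Tomato+ and 41.5% of Tomato- cells of order 1, and in 60.4% and 50.4% in order 2, with 4, 7, 0 and 6 cells too shallow.

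**Figure D4:**
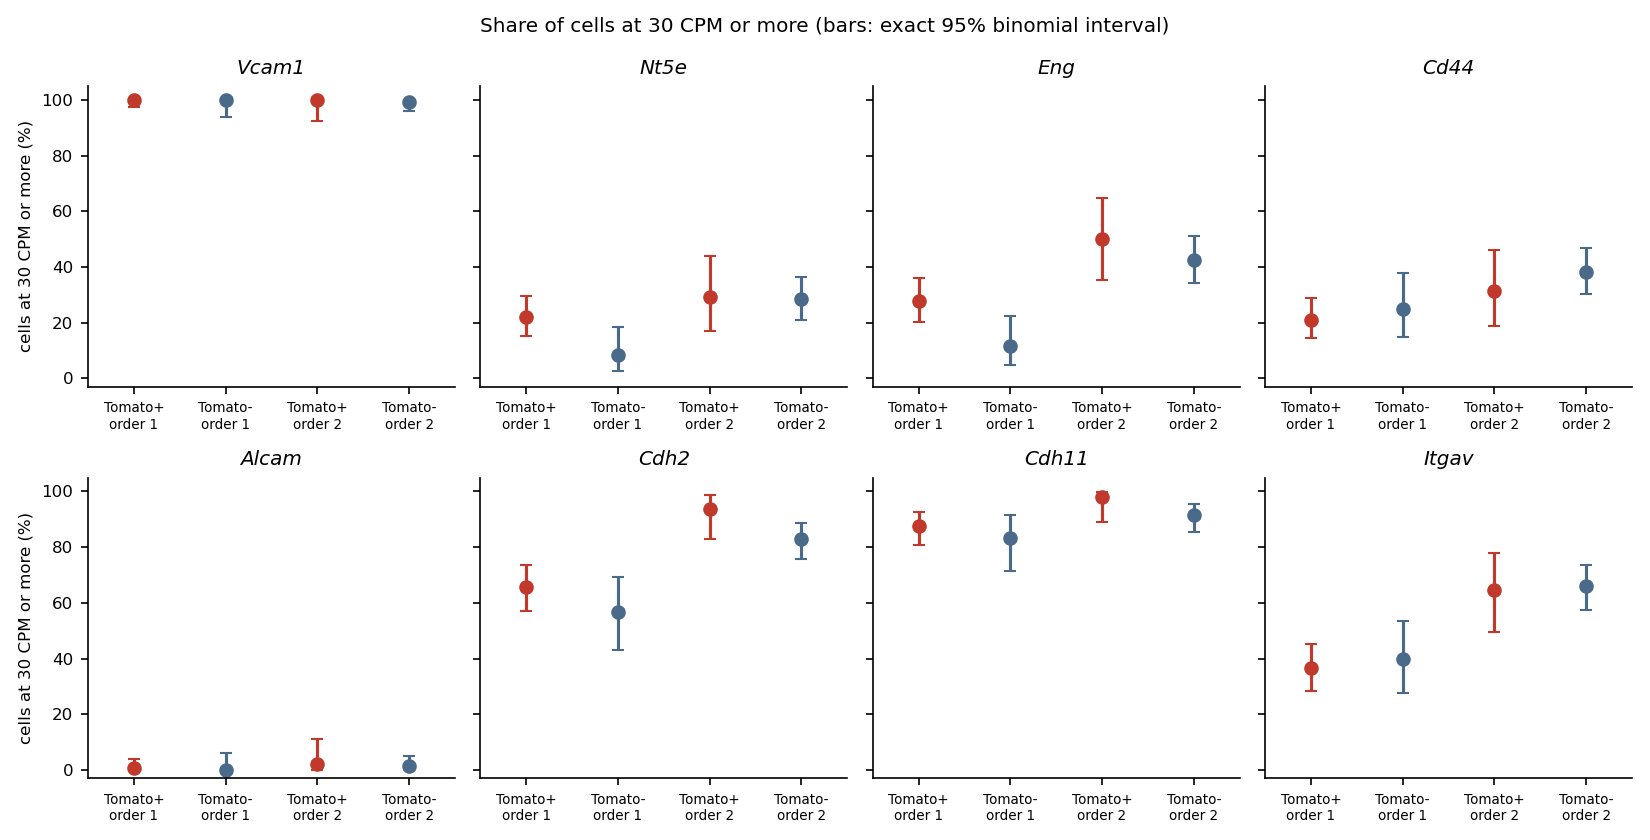
Share of cells with 30 CPM or more of each gene, in percent, for Tomato+ and Tomato- cells of order 1 and order 2. Bars are exact 95% binomial intervals. The intervals of Tomato+ and Tomato- cells overlap for each gene in both orders, and Cdh2 and Itgav have larger shares in order 2 than in order 1.

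Most cells carried several members. At 30 CPM the median number of the 8 genes per cell was 4 in Tomato+ and 3 in Tomato- cells of order 1, and 5 in both groups of order 2. At that level 8 Tomato+ and 4 Tomato- cells of order 1 and 2 Tomato- cells of order 2 held a single member, no cell held all 8, and 1 Tomato+ and 3 Tomato- cells held 7. Nt5e and Eng, the CD73 and CD105 genes, were both at 30 CPM in 33 cells, and Eng was high in 37.1% of the cells high in Nt5e against 33.4% of all cells. Eng and Cd44 were both high in 43 cells, and Cd44 was high in 33.3% of the cells high in Eng against 29.3% of all cells. Cdh2 and Cdh11 were both high in 280 cells, and Cdh11 was high in 97.9% of the cells high in Cdh2 against 89.6% of all cells.

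Across all cells of one order, the broadly present members had positive correlations, weaker in order 2. The Spearman rho of log2(CPM + 1) between Vcam1 and Cdh11 was 0.37 in order 1 and 0.25 in order 2. It was 0.36 and 0.22 between Cdh2 and Cdh11, and 0.29 and 0.10 between Vcam1 and Cdh2. Vcam1 and Cd44 had -0.09 and -0.16. Cd44 and Itgav had 0.24 in order 1 and -0.02 in order 2. Nt5e and Eng lay near 0 at -0.02 and 0.04. Itgav was also positive with Vcam1, Cdh2 and Cdh11 in both orders, with 0.14 and 0.13 for Cdh2. Without cells holding markers of another class, Ptprc or Pecam1, Vcam1 and Cdh11 had 0.34 in order 1 and 0.09 in order 2, and Vcam1 and Cdh2 had 0.25 and -0.01. For Cdh2 and Cdh11 the values were 0.33 and 0.16, and for Vcam1 and Cd44 they were -0.03 and 0.08, but order 2 was left with 25 cells. These values are descriptions, since cells share libraries, depth and the sort, and Cdh11 itself had a rho of 0.39 with the number of genes of a cell in order 1 and -0.02 in order 2.

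**Figure D5:**
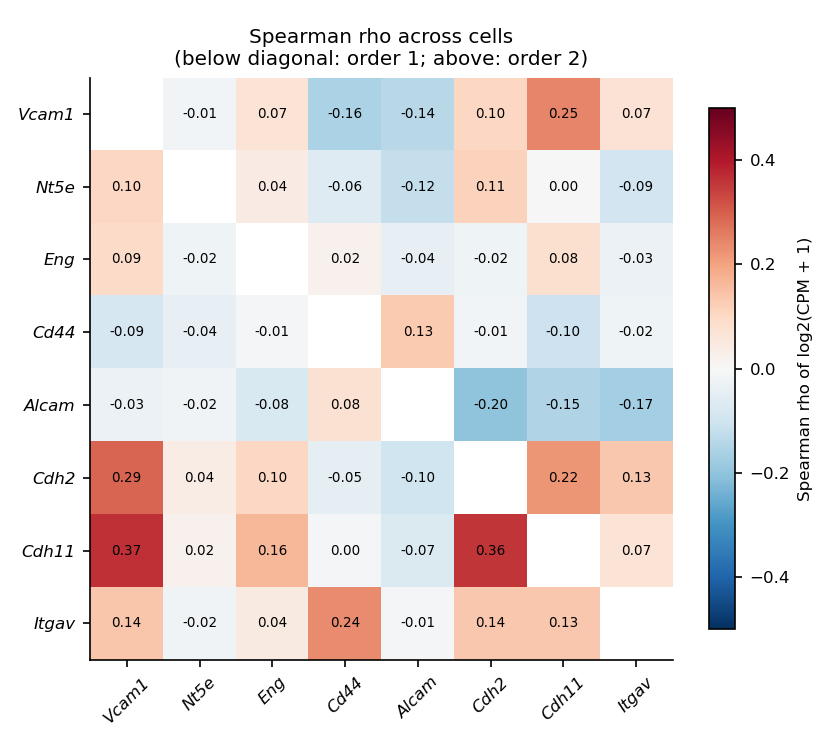
Spearman rho of log2(CPM + 1) across cells for each pair of the 8 genes, below the diagonal for order 1 and above it for order 2. Pairs among Vcam1, Cdh2, Cdh11 and Itgav are positive in both orders, with the Vcam1 and Cdh11 pair at 0.37 and 0.25, and the Nt5e and Eng pair lies near 0.

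The genes most alike to each member were taken by mean rho over the orders among 3235 genes. For Vcam1 they were H2-D1 (0.42), a class I histocompatibility gene, Gas6 (0.41), which encodes a ligand of TAM receptors, and Csf1 (0.41), the macrophage growth factor. Cdh2 had Islr (0.44), Igfbp4 (0.41) and the elastic fibre gene Fbln5 (0.41), and Cdh11 had Chrdl1 (0.38), which encodes a BMP antagonist, Fbln5 (0.37) and Plxdc2 (0.36). Fbln5 was thus among the nearest genes of both cadherins. The likeness was weaker for the sparse members: Cd44 had Anxa1 (0.26), Impad1 (0.26) and Cyc1 (0.23), and Itgav had Lox (0.26), a collagen cross-linking enzyme gene, Frmd6 (0.25) and App (0.25). Eng had Tfpi (0.25), Rpn2 (0.22) and Sparc (0.20). Nt5e had Pxk (0.23), Trarg1 (0.22) and Serp1 (0.21), and Alcam, with a count in few cells, had Gsr (0.20), Med28 (0.20) and Anp32a (0.18).

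Among the partners of the members, few genes passed the size rule. Of 14 genes for the ligands and receptors around Vcam1 and for leukocyte adhesion, 5 were tested and 0 passed. Itgb1, the β chain of the receptor for VCAM-1, had 467 CPM in Tomato+ and 508 CPM in Tomato- cells of order 1, and 813 and 749 CPM in order 2. Icam1, another leukocyte adhesion receptor, had 272 and 336 CPM in order 1, and 672 and 511 CPM in order 2. Of 19 further immunoglobulin-type adhesion genes 5 were tested and 0 passed. Ncam1 had 144.9 CPM in Tomato+ and 139.7 CPM in Tomato- cells of order 1, and 129.4 and 114.5 CPM in order 2.

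Of 13 other cadherins none reached the level for testing, while Cdh2 and Cdh11 did. Cdh5, the cadherin of endothelium, had 18.7 CPM in Tomato+ and 0.0912 CPM in Tomato- cells of order 1, and 6.27 and 0.0861 CPM in order 2. Cdh13, which encodes T-cadherin, went opposite ways, with 15.3 and 5.32 CPM in order 1 and 3.92 and 12.2 CPM in order 2. Of 12 catenin and junction genes 7 were tested, and 1 passed on the higher side. This was Nectin2, an adhesion receptor of cell junctions, with 49.2 CPM in Tomato+ and 17.5 CPM in Tomato- cells of order 1, while order 2 gave 111.1 and 67.6 CPM, 1.07 on average on the log2 scale.

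Around Itgav, 2 of 5 β chain partners were tested and 0 passed. Itgb5 had 34.2 CPM in Tomato+ and 51.4 CPM in Tomato- cells of order 1, and 11.5 and 22.7 CPM in order 2, short of 1.5-fold in order 1. Of 15 other integrin α chains 4 were tested and 0 passed. Itga1, also a collagen receptor chain and the most abundant, had 282 CPM in Tomato+ and 454 CPM in Tomato- cells of order 1, and 222 and 252 CPM in order 2. Itga11, another collagen receptor chain, had 130.98 and 34.8 CPM in order 1 but 142.5 and 114.4 CPM in order 2. Of 14 αv ligands and latent TGF-β genes, 12 were in the table by symbol, 7 were tested and 0 passed. Spp1, which encodes osteopontin, went opposite ways, with 5259 CPM in Tomato+ and 2149 CPM in Tomato- cells of order 1, and 3016 and 4975 CPM in order 2. Tnc, which encodes tenascin C, had 2226 and 1710 CPM in order 1, and 3558 and 2706 CPM in order 2.

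Of 18 genes of the endoglin receptor complex and its signalling, 13 were tested and 0 passed, with a median log2 ratio of -0.15. Tgfbr3, the gene of the other TGF-β co-receptor betaglycan, had 365 CPM in Tomato+ and 476 CPM in Tomato- cells of order 1, and 628 and 580.3 CPM in order 2. Acvr2a, an activin receptor gene, had 84.1 and 90.6 CPM in order 1, and 239 and 159.7 CPM in order 2. Of 18 hyaluronan and CD44 partner genes, 17 in the table, 6 were tested and 0 passed. Msn, which encodes moesin, a linker of CD44 to actin, had 228 and 218 CPM in order 1, and 181.9 and 247 CPM in order 2. Rdx, which encodes the related linker radixin, had 111.3 and 134.6 CPM in order 1, and 113.07 and 124.3 CPM in order 2. Of 15 ectoenzyme and adenosine receptor genes 5 were tested and 0 passed. Slc29a1, a nucleoside transporter gene, had 977 and 543 CPM in order 1, and 1219 and 1011 CPM in order 2. Enpp1, an ectonucleotidase gene, had 99.2 and 177.1 CPM in order 1, and 132.3 and 104.6 CPM in order 2.

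Of 18 other surface markers of mesenchymal and skeletal stem cells, 10 were tested and 0 passed. Lepr had 3657 CPM in Tomato+ and 4261 CPM in Tomato- cells of order 1, and 4141 and 4381 CPM in order 2. Cd63, which encodes a tetraspanin, had 949 and 831 CPM in order 1, and 784.4 and 784.1 CPM in order 2. Of 13 genes of the NF-κB response, which is known to induce Vcam1, 11 were tested and 1 passed on the higher side, the chemokine gene Ccl7. It had 1579 CPM in Tomato+ and 615 CPM in Tomato- cells of order 1, while order 2 gave 591 and 391 CPM, 0.98 on average on the log2 scale. Over these 12 lists 2 different genes passed, both on the higher side, beside the shares of 2.72% higher and 3.62% lower for all genes tested.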

How the data were processed

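The members and gene lists were chosen with earlier results of these data known. Per the file headers and values, the authors' deposited table holds expected counts; 4.91% of those above 0 were fractional, and all were rounded here. HISAT, HTSeq 0.6.0, StringTie 1.3.3b and GRCm38 are named in the submitters' processing notes, without their roles. Per the labels' protocols, the RNA of each cell was reverse transcribed and then amplified, and molecular identifiers are not mentioned.

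Columns were matched by name to groups and title sets, none to single cells; 0 were unused and 0 were duplicates. The filter on cells was 1000 genes and 10000 counts. Counts were summed per group and title order and scaled to CPM. The ratio of Tomato+ to Tomato- was taken on the log2(CPM + 1) scale in each of the 2 orders and averaged; this scale understates changes of low genes. A gene entered the comparison, and is called tested in the text, when the higher group of each order reached 20 CPM with counts in 20% of its cells. It was called higher or lower when both orders passed 1.5-fold with the same sign and the mean of per-cell CPM moved the same way. Cells are not replicates, so no p-values were computed, and no doublet caller was run. Sums have exact Poisson intervals and shares Clopper-Pearson intervals. Besides the members, the text names the 3 genes most alike to each and, per list, those past the rule or else the 2 most abundant; some endothelial and blood markers were named after their values were seen. Of the 8 members 7 passed the level filter, Alcam not. The functions were tested on simulated data. Python 3.11.15, numpy 2.4.6, pandas 2.3.3 and scipy 1.17.1 were used.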

Additional observations from a re-analysis of the deposited data

How the results depend on the processing

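No paired analysis was possible because no result comes from a test; ratios within pools that hold both groups, below, are values without a test. Leaving out 1 title set at a time, the members called higher ran between 0 and 2, those called lower between 0 and 1, and the median log2 ratio of the members between -0.093 and 0.33. The number called higher was 0, in place of 1, without cells holding Ptprc or Pecam1, without the top cell of each gene, within pools that hold both groups, at 2-fold, and without cells of other classes at 50 CPM, an alternative chosen after seeing the data. The number called lower was 0, in place of 1, with the mean of per-cell CPM, without cells holding Ptprc or Pecam1, without cells holding other classes at 5 counts, within pools and at 2-fold. The median, 0.18, was 0.11 with the mean of per-cell CPM, 0.060 with all cells summed, 0.13 with median-of-ratios size factors, 0.090 without cells holding Ptprc or Pecam1, 0.11 and 0.23 without cells of other classes at 5 counts and at 50 CPM, and 0.23 within pools. Eng, at 0.99, was at -0.54 without cells holding markers of other classes at 5 counts, which removes 220 of 386 cells. There, and with all cells summed, Nt5e was the gene called higher. Cells of other classes are here those that hold such markers, and they are not thereby shown to be other than stroma. The marker lists include Fbn1, Gsn and Notch3, which had high summed levels in both groups and orders. Each kept cell also had a count of Lepr. Size factors moved the median of all genes tested by -0.18 in order 1 and 0.08 in order 2. Each alternative gave 1 ratio per gene, in most a mean of the orders. Its sign held in 21 of 21 alternatives for Vcam1, Cd44 and Cdh2, in 20 for Nt5e, Eng and Itgav, in 17 for Cdh11 and in 15 for Alcam. Within an order the sign could turn. Vcam1 was -0.38 in order 1 without Tomato+ set P1, and Cdh2 -0.07 in order 2 without Tomato- set N2. Cd44 was 0.08 in order 2 without other classes at 5 counts. Without Tomato- set N2 of order 1, order 2 stood alone. The causes were not tested. Of the mean rho values, 57 moved by no more than the gap between orders and 27 by more. With 1 sample a group, the spread between animals is unknown.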
